A study of Homo sapiens with 17 samples.

Results

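The regions described here are exon regions at the 5′ end of a gene, as listed in 3 tables that set a pull-down with an antibody against N6-methyladenosine (m6A) against a pull-down with unspecific immunoglobulin G (IgG) in 3 prostate cell lines. A region was taken when its overlap entry held exactly 1 gene with an exon mark, and when that gene was named among the neighbouring exons on the downstream side only. Neighbouring exons are listed up to 10000 bp away, so an exon after a longer intron can also meet the rule. In HPr1AR 7381 of 139373 regions met the rule, from 6015 genes. LNCaP gave 6277 of 110260 (5280 genes), and 22Rv1 gave 5375 of 77311 (4729 genes), or 19033 of 326944 regions and 7163 genes over the tables. HPr1AR cells are immortalised prostate epithelial cells without tumour origin, LNCaP cells come from an androgen-dependent prostate cancer metastasis, and 22Rv1 cells stand for castration-resistant disease. All cells were labelled wild type and vehicle-treated, so no group here received a drug. The labels hold 3 samples of each pull-down per line, except for the m6A pull-down of 22Rv1 with 2 samples, numbered 1 and 3. Each line is a single established culture, and the tables hold 1 value per region and line with no value per sample.

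m6A is written onto adenosines of messenger RNA by the METTL3 and METTL14 methyltransferase complex, most often within the core GGAC, and it is best known around stop codons and in long last exons. The first transcribed base of a messenger RNA, where it is an adenosine, can carry the related cap-adjacent mark m6Am, which antibodies against m6A also bind. Regions at 5′ ends can therefore hold either mark, and a pull-down does not tell them apart.

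The start sequences of genes named below show what the first transcribed base looks like in 3 sets: promoter-touching regions far above the reference in every line, genes whose 5′ end stood above their 3′ end in every line, and ribosomal protein genes with the most reads. Each line runs 5′ to 3′ from 10 bases before the RefSeq start (GRCh38.p14) through the first 20 transcribed bases, and the capital marks the first transcribed base. NASP lies at chr1:45584031-45584060 (plus strand), TIMM8A at chrX:101348723-101348752 (minus), ARPC2 at chr2:218217179-218217208 (plus), TBC1D22A at chr22:46763732-46763761 (plus), COMMD10 at chr5:116085015-116085044 (plus), CYP51A1 at chr7:92134458-92134487 (minus), TMCO1 at chr1:165768903-165768932 (minus), RPS6 at chr9:19380217-19380246 (minus), RPL37A at chr2:216498834-216498863 (plus) and RPS19 at chr19:41860245-41860274 (plus).
NASP: cgcgcggggtCtctaatctgccattttctg
TIMM8A: agaggcagctAgctgtggttccggttccgt
ARPC2: gaccgggcttGtcggtgaagcggcagtggc
TBC1D22A: tttcataataAatattattgtttgagtgtt
COMMD10: cgcagctaacAgacggcggcagtgcgagaa
CYP51A1: ggctgggtttAgtaggagacctggggcaag
TMCO1: gttctccgatAcgagcctttccggtgctat
RPS6: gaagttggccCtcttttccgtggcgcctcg
RPL37A: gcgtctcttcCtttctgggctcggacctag
RPS19: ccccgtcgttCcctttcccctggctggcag

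All 3 ribosomal protein genes start with a C followed by 4 bases that are each C or T, the start typical of that family, whereas COMMD10, CYP51A1 and TMCO1 start with an A. These sequences come from RefSeq, and their GRCh38.p14 coordinates are not those of the regions. The submitters' processing notes name hg38 for the tables, yet only 12.3%, 12.9% and 12.0% of the regions (HPr1AR, LNCaP, 22Rv1) whose gene has a GRCh38 span touched that span. Region positions below are given as the files have them, and their build was not settled.

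Values were read as follows. The tables list for each region the log2 fold of 1 representative 20 bp window and the p-value of the region. The whole reads of that window were recovered from them for both pull-downs. The column names do not state which pull-down forms the numerator. It is taken here to be m6A, so that higher means more m6A than IgG reads per depth. The log2 read ratio is the numerator rate over the reference rate, relative to recovered depths of 5.134 and 11.72 M reads in HPr1AR, 3.923 and 8.872 M in LNCaP, and 3.298 and 4.820 M in 22Rv1. A region was called higher or lower by a two-sided exact binomial test with Benjamini-Hochberg adjustment over the whole table at 0.05. Intervals are 95% exact (Clopper-Pearson) and, like the p-values, cover counting error only. A count of 0 allows up to 3 reads, and a ratio against 0 reads was set against that floor and is a lower bound. Where the listed p is 0 and more than 1 pair of reads met the fold, both reads are the smallest the table allows, marked "at least". The ratio is then a lower bound as well. Where the listed p is above 0 and more than 1 pair of reads met the listed values, which was common in LNCaP (1249 of 6277 members), the closest pair is given. The representative window is the authors' choice within each region, so its reads are not those of the whole region. Shares of higher and lower calls are likewise those of chosen windows, in members that the authors all list as up. The lines were checked by their markers: regions were listed for 8 of 8 basal epithelial markers in HPr1AR against 1 of 8 in each cancer line, and for 10 of 11 luminal markers in LNCaP and 22Rv1 against 5 of 11 in HPr1AR, where KLK2, KLK3 and TMPRSS2 had none.

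The 5′ end exon regions split into 2 kinds with different pull-down. Regions that also touch the gene's annotated promoter were called higher in 67.1% of 4301 cases in HPr1AR. LNCaP gave 63.0% of 3890 and 22Rv1 65.1% of 3595. Those that touch an exon and no promoter were called higher in 29.1% of 3080, 29.9% of 2387 and 37.5% of 1780. Over all widths, the shares without a promoter lie near those of internal exon regions, which were 27.8%, 25.9% and 31.7%. Internal exon regions that touch no promoter gave 25.3%, 23.6% and 29.0%, and those that touch one 40.4%, 37.0% and 43.4%. Both kinds of 5′ end region summed to 3782 higher regions in HPr1AR (51.2% against 38.0% of all its regions). LNCaP had 3164 (50.4% against 38.0%), and 22Rv1 had 3008 (56.0% against 54.2%). In 22Rv1 the share of all members thus lies near the background. With depths rescaled so that the median log2 ratio of each table is 0, promoter-touching members were higher in 32.7%, 32.1% and 14.7% and the others in 14.4%, 14.8% and 10.6%, against 20.5%, 20.4% and 15.5% of all regions. The gap between the kinds was then 4.04 percentage points in 22Rv1, and its promoter-touching share was under the background. The authors' deposited table gives no such split, since it lists every member as up and 99.2%, 98.3% and 99.8% of them under an adjusted p of 0.05, against 96.5%, 95.4% and 99.3% of all regions.

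A region without a promoter mark can be the exon after a long first intron, since an upstream exon more than 10000 bp away is not listed. A 3′ end region, with its gene named on the upstream side only, can likewise be an exon before a long intron. Promoter-touching members had a median log2 read ratio of 2.28, 2.35 and 2.28 in HPr1AR, LNCaP and 22Rv1, and the other members 0.90, 0.81 and 1.25, beside 1.33, 1.40 and 2.13 over all regions. For comparison, 3′ end regions were called higher in 59.1%, 59.7% and 66.4%, and regions in a promoter without an exon in 70.4%, 64.2% and 81.2%. Regions outside genes reached 61.5%, 51.2% and 74.5%, with a median of 1 to 2 reference reads. A high share is therefore not particular to exons, and whether reads from outside transcripts enter the promoter-touching regions was not tested.

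**Figure D1:**
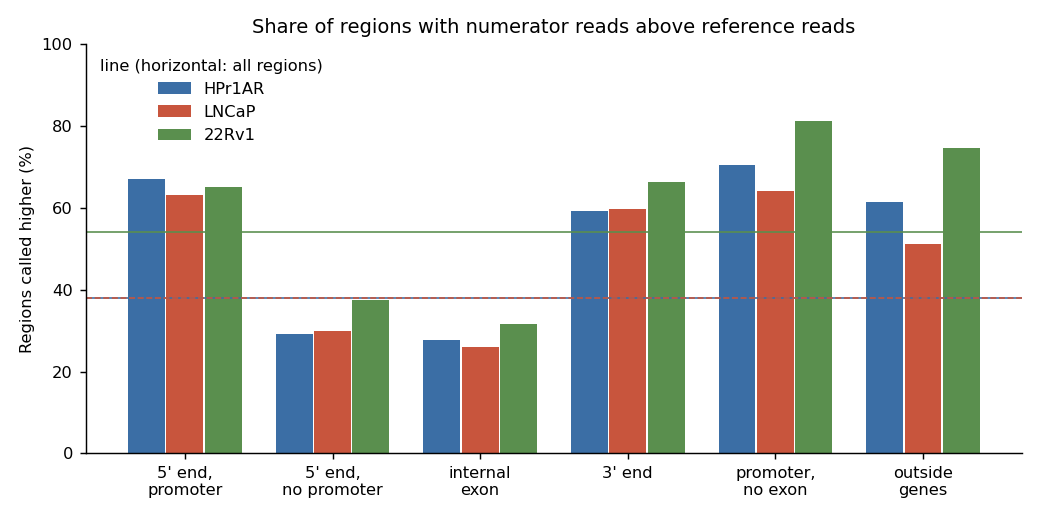
Bars give the percent of regions called higher (y axis) by place (x axis) and line, and horizontal lines give all regions of each table (38.0% in HPr1AR and LNCaP, 54.2% in 22Rv1). Promoter-touching 5′ end regions reach 63.0% to 67.1%, and the other 5′ end regions 29.1% to 37.5%, close to internal exons when widths are not matched.

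Width moved with this split, and a wider region holds more windows to choose from. The median width of promoter-touching members was 580, 570 and 400 bp in HPr1AR, LNCaP and 22Rv1, and that of the other members 180, 190 and 170 bp. Among regions over 100 and up to 300 bp wide, promoter-touching members were called higher in 43.3%, 36.7% and 50.1% and the others in 18.6%, 17.7% and 29.0%, against 27.4%, 23.3% and 45.4% of all regions of that width. Over 300 and up to 1000 bp the shares were 75.7%, 69.8% and 77.6% with a promoter, 52.4%, 53.4% and 68.6% without, and 53.4%, 52.8% and 70.7% over all regions of that width. Above 1000 bp they were 88.1%, 89.2% and 87.9% with a promoter and 73.2%, 70.7% and 83.4% without, against 77.2%, 78.1% and 84.1% over all regions and 86.5%, 87.8% and 89.6% in 3′ end regions. The order held in each width class and line, with a gap of 23.3 percentage points over 300 and up to 1000 bp in HPr1AR, 16.5 in LNCaP and 8.99 in 22Rv1. Members without a promoter lay below all regions of their width class, except over 300 and up to 1000 bp in LNCaP. They lay above internal exon regions in every width class and line. Over 300 and up to 1000 bp, internal exon regions were called higher in 40.1%, 38.3% and 50.1%. Above 1000 bp it was 62.6%, 65.0% and 68.7%. Promoter-touching members lay above all regions except up to 100 bp in 22Rv1, and above 1000 bp they were close to 3′ end regions.

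**Figure D2:**
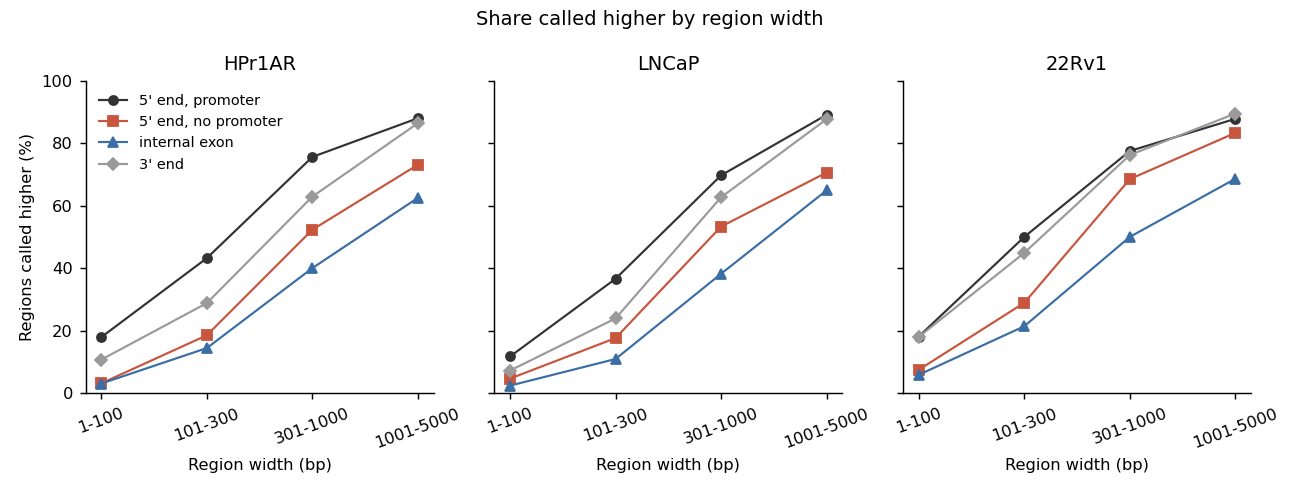
Each panel is 1 line; the x axis gives classes of region width in bp and the y axis the percent of regions called higher. Promoter-touching 5′ end regions lie above the other 5′ end regions in every class, from 18.0% against 3.21% at 1 to 100 bp to 88.1% against 73.2% above 1000 bp in HPr1AR.

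Shares by the distance to the next listed exon moved in the regions without a promoter and little in the others. With the next exon up to 1000 bp away, members without a promoter were called higher in 24.8%, 24.4% and 29.4%. Beyond 5000 and up to 10000 bp these shares were 34.8%, 34.6% and 46.6%. Promoter-touching members gave 66.8%, 62.1% and 64.2% at the short distance and 67.8%, 63.5% and 65.3% at the long one. Differences between these shares were not tested, since regions are not replicates of a condition.

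The place of the representative window inside wide regions was counted from the region's upstream edge in regions of at least 300 bp whose gaps between windows sum to at most 50 bp. In promoter-touching members called higher, the median place was 240 bp from the edge in HPr1AR (quartiles 130 and 520 bp, 1170 regions). It was 275 bp in LNCaP (140 and 590 bp, 1053 regions) and 220 bp in 22Rv1 (130 and 490 bp, 978 regions). With each region cut into 5 equal parts, the most upstream held the window in 20.5%, 18.9% and 17.6% of them and the most downstream in 6.67%, 7.41% and 7.36%. An upstream lean was also present in 3′ end regions of type exon called higher, with medians of 360, 380 and 325 bp from the edge and shares of 17.0%, 15.4% and 8.92% in the most upstream and 10.0%, 9.69% and 7.94% in the most downstream. Promoter-touching members not called had their window in the most upstream in 29.3%, 32.3% and 31.9%.

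Over the lines, 3701 genes had a 5′ end exon region in all 3 tables. In 1736 of them (46.9%) such a region was called higher in every line, in 640 (17.3%) in 2 lines, in 558 (15.1%) in 1 line and in 767 (20.7%) in none. Promoter-touching regions alone gave 1379 genes in every line. Over exon regions of any place, which give most genes more than 1 chance, 7728 of 9631 genes (80.2%) had a higher one in every line. For 3′ end regions it was 4894 of 6696 genes (73.1%) and for internal exon regions 2878 of 5812 (49.5%). The 5′ end share was the lowest of these, but the number of regions per gene differs by place. In HPr1AR, 32817 internal regions came from 8065 genes, 13443 3′ end regions from 8733 and 7381 5′ end regions from 6015. Per region, the higher share in HPr1AR was 51.2% at 5′ ends, 59.1% at 3′ ends and 27.8% in internal exons.

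Ordered by the smallest lower limit of the ratio over the 3 lines, the genes higher in all of them were led by ST3GAL2, a sialyltransferase of glycolipids and glycoproteins. Its region, on chromosome 16 from 70432101 to 70433450 in HPr1AR, held 66 numerator reads against 2 reference reads in HPr1AR, at least 63 against 2 in LNCaP and 60 against 0 in 22Rv1. These reads give log2 ratios of 6.23 (interval 4.32 to 9.31), at least 6.15 (lower limit 4.24) and at least 4.87 (lower limit 4.53). Each table thus held at least 60 numerator reads, and the 22Rv1 ratio is set by the floor of 3 reads. Where reads are known only as at least, the order among genes is not determined.

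NASP, a chaperone of histones, followed with a region on chromosome 1 from 46048941 to 46050750 in HPr1AR. It held 60 reads against 2 in HPr1AR, at least 60 against 0 in LNCaP and 67 against 0 in 22Rv1. TIMM8A, a chaperone of import into mitochondria, gave at least 59 against 1, at least 61 against 1 and 46 against 0 reads. ARPC2, a subunit of the actin-nucleating Arp2/3 complex, gave at least 60 against 3, at least 70 against 3 and 51 against 0. All 4 genes had promoter-touching regions, and the start sequences of NASP, TIMM8A and ARPC2 above begin with C, A and G, so the leading genes do not share a first base.

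IMPA1, the inositol monophosphatase inhibited by lithium, gave 56 against 2, 48 against 2 and 71 against 2 reads, with log2 ratios of 6.0, 5.76 and 5.70. TBC1D22A, a member of the TBC domain family of Rab regulators, gave at least 65 against 4, at least 61 against 2 and 55 against 0. The pseudogene MTMR9LP gave 60 against 1, 43 against 1 and 54 against 1, and its log2 ratio of 7.10 in HPr1AR was above the 6.23 of ST3GAL2. The remaining 3 of the 10 leading genes touched no promoter: SLC2A10, a glucose transporter gene, with 56, 26 and 43 reads against 0 in each table, TMEM229B with at least 64 against 2, at least 61 against 1 and 56 against 1, and the long non-coding RNA LINC01128 with 60 against 2, at least 63 against 3 and 48 against 0. Regions without a promoter mark thus reach the top of the range, although fewer of them do.

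**Figure D3:**
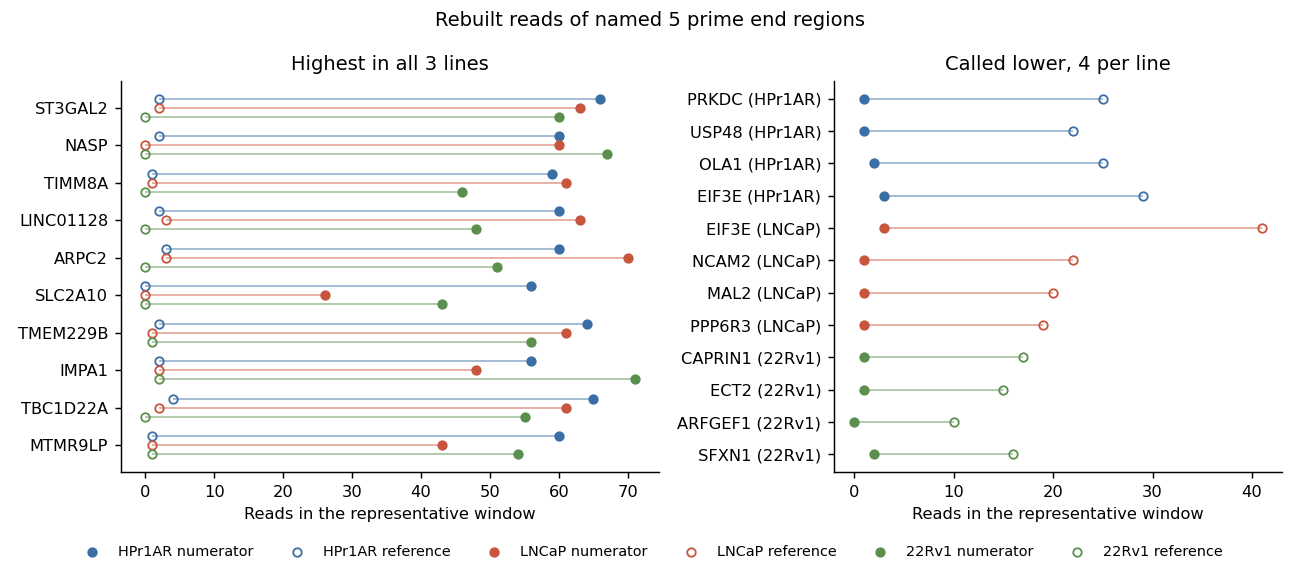
Points give rebuilt reads of the representative window (x axis), filled for the numerator and open for the reference, coloured by line. On the left the 10 genes highest in all 3 lines hold 26 to 71 numerator reads against 0 to 4, some of them the smallest the table allows, and on the right the 4 members per line called lower with the smallest adjusted p hold 0 to 3 numerator reads against 10 to 41.

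Beyond these 10 genes, the leaders within a line all had 0 reference reads. Where reads are known only as at least, this 0 is the smallest value allowed, and the order is not determined. In HPr1AR they were ESRP2, an epithelial splicing regulator (61 reads against 0), UGP2, which makes UDP-glucose, ADPRHL1 and the crystallin gene CRYBA2 (each at least 60 against 0), AMN1 (59) and LOC100505715 (58). In LNCaP they were the histone methyltransferase gene SETD1A (at least 69 against 0), the synaptic adhesion gene NLGN1 (at least 63), and ELOVL1, CATSPER2, ESRP2 and the vitamin D receptor gene VDR (each at least 61). In 22Rv1 they were GAS6, a ligand of TAM receptor kinases (88 against 0), LRFN1 (85), MXRA8 (81), PCYT1A, which makes an intermediate of phosphatidylcholine (76), RBM4B and INPP5A (71 each). Lower limits of the log2 ratio were 5.12 to 5.19 in HPr1AR, 5.18 to 5.36 in LNCaP and 4.78 to 5.09 in 22Rv1. ESRP2 led in HPr1AR and LNCaP alike, and of the 18 regions only those of GAS6 and INPP5A touched no promoter.

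Lower members were few, 4 in HPr1AR (0.0542% against 0.0911% of all regions), 8 in LNCaP (0.127% against 0.111%) and 11 in 22Rv1 (0.205% against 0.752%). Every member is listed as up by the authors, so this small number is not read as a result. All lower members but that of ECT2 in 22Rv1 touched no promoter. In HPr1AR they were PRKDC, the catalytic subunit of DNA-dependent protein kinase, with 1 numerator read against 25 (log2 ratio -3.45, interval -8.81 to -0.84), USP48 (1 against 22), OLA1 (2 against 25) and EIF3E, a subunit of translation initiation factor 3 (3 against 29). The EIF3E region held 3 against 41 reads in LNCaP, where its log2 ratio was -2.60 (-4.93 to -0.95). LNCaP further had NCAM2 (1 against 22), MAL2 (1 against 20) and PPP6R3 (1 against 19). The leading genes in 22Rv1 were CAPRIN1, an RNA-binding protein of stress granules (1 against 17), ECT2, which acts in cell division (1 against 15), ARFGEF1 (0 against 10) and SFXN1, a mitochondrial serine carrier (2 against 16). EIF3E and ATXN2 were called lower in 2 lines each, ATXN2 through different regions. All lower regions were 320 bp wide or less, except those of EIF3E (1060 bp) and TENM1 in LNCaP (1070 bp).

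Gene families are read against all genes with a 5′ end exon region, of which 59.0%, 56.4% and 59.8% had a higher one in HPr1AR, LNCaP and 22Rv1, with median log2 ratios of 2.01, 2.08 and 2.13. Genes named ZNF, most of which encode zinc finger transcription factors, stood above this with 147 of 203, 129 of 189 and 118 of 157 genes higher and medians of 3.07, 3.18 and 2.87. ZNF622 held at least 70 reads against 20 in HPr1AR, at least 64 against 6 in LNCaP and at least 95 against 12 in 22Rv1. ZNF217 held at least 63 against 18, at least 59 against 17 and 78 against 11. Reference rates of the ZNF list were low, with a median of 0.256, 0.338 and 0.415 reads per M against 0.597, 0.676 and 1.04 over all genes.

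Ribosomal protein genes stood below, with 10 of 24, 11 of 26 and 7 of 16 higher and medians of 1.12, 0.88 and 1.31. RPS6 held 38 reads against 76 in HPr1AR and 39 against 65 in LNCaP, log2 ratios of 0.19 (-0.41 to 0.77) and 0.44 (-0.17 to 1.03) that were not called. RPL37A held 21 against 60, 24 against 48 and 28 against 34, and RPL26 was called higher in HPr1AR with 33 against 23 (log2 1.71, 0.90 to 2.55) and in LNCaP with 37 against 40 (log2 1.06, 0.38 to 1.75). Respiratory chain genes gave 3 of 10, 2 of 7 and 2 of 9 higher with medians of 0.24, 0.95 and 0.55. COX7C, a subunit of cytochrome c oxidase, held 22 against 41 in HPr1AR and 27 against 44 in 22Rv1, and the complex I gene NDUFV1 29 against 43, 11 against 15 and 8 against 13, none of them called. In these uncalled genes the reference held more reads than the numerator in each table, at a greater reference depth.

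Genes of the m6A machinery had a higher 5′ end region in 10 of 15, 11 of 14 and 11 of 12 cases. The demethylase gene ALKBH5 held at least 63 against 17 reads in HPr1AR, at least 67 against 51 in LNCaP and 88 against 27 in 22Rv1. METTL16, which methylates U6 RNA and MAT2A mRNA, held at least 61 against 8, at least 69 against 11 and 82 against 4 in a region without a promoter, and WTAP, a subunit of the methyltransferase complex, at least 60 against 4, at least 63 against 9 and 65 against 8. Each of these 9 regions was called higher.

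TGFβ and BMP pathway genes gave 12 of 16, 12 of 17 and 9 of 13. Their inhibitory SMAD genes were high in every line: SMAD6 with 60 against 2, at least 63 against 9 and 94 against 3, and SMAD7 with at least 61 against 8, at least 61 against 1 and 90 against 5. Immediate early genes gave 8 of 12, 6 of 9 and 7 of 8, among them KLF4 with at least 61 against 8, 54 against 6 and 48 against 0. Cell cycle and p53 genes gave 11 of 19, 8 of 13 and 11 of 14, with the CDK inhibitor genes CDKN2C and CDKN1B higher in every line. Of the Wnt pathway, 6 of 12, 7 of 12 and 5 of 11 were higher; the Wnt co-receptor gene LRP5 was higher in every line (at least 62 against 10, 94 against 28 and 48 against 9), the 22Rv1 region being a different one from that of the other lines, while CTNNB1, the gene of β-catenin, was not called in any (19 against 36, 18 against 48 and 26 against 41).

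Retinoid receptor and enzyme genes, the class to which the receptor in the series title belongs, gave 8 of 11, 6 of 7 and 4 of 6. RARG itself held 26 against 11 reads in HPr1AR (log2 2.43, 1.36 to 3.60), 16 against 3 in LNCaP (3.59, 1.79 to 6.01) and 29 against 7 in 22Rv1 (2.60, 1.38 to 4.03), and was called higher in each. RARA held 62 against 5 in HPr1AR and at least 67 against 4 in LNCaP. Androgen-regulated genes gave 6 of 14, 10 of 20 and 8 of 13. The region of KLK3, which encodes prostate-specific antigen, had at least 71 reads against 131 in LNCaP, too close to the depth ratio to be called from a bound, and 10 against 1 in 22Rv1 (log2 3.87, 1.06 to 9.31). Nuclear receptor coregulator genes gave 8 of 17, 7 of 15 and 5 of 13, among them EP300 higher in every line and HDAC2 in none.

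Chromatin genes gave 11 of 26, 17 of 28 and 11 of 26, MAP kinase and growth factor genes 12 of 26, 12 of 22 and 13 of 20, and heat shock genes 6 of 14, 7 of 10 and 4 of 10. None of these lists had a lower member. The major chaperone gene HSPA5 held at least 79 against 143 reads in HPr1AR, 81 against 118 in LNCaP and 50 against 70 in 22Rv1, and was called higher in LNCaP, at a log2 ratio of 0.63 (0.21 to 1.05), undetermined in HPr1AR and not called in 22Rv1. Its intervals in the 3 tables overlap.

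The promoters behind the promoter-touching members were compared through RefSeq (GRCh38.p14), which held a sequence for 3452 of 4183 genes (HPr1AR), 3132 of 3780 (LNCaP) and 2893 of 3524 (22Rv1). Their windows of 250 bases before and 50 after the start had a median GC content of 65.3%, 65.7% and 66.0%, against 58.3% over all 27303 promoters of the table. Genes with 5′ end exon regions off the promoter alone reached 68.0%, 68.3% and 68.0%, so a high GC content is not particular to the promoter-touching ones. The letters TATAAA, searched on the transcribed strand from 45 to 11 bases before the start, were found in 1.15% to 1.59% of the promoter-touching genes' windows, against 2.68% of all promoters. The 250 bases upstream of NASP (chr1:45583791-45584040, plus strand) and TIMM8A (chrX:101348743-101348992, minus strand) are shown with CG in capitals, as a contrast within the leading genes.
NASP upstream: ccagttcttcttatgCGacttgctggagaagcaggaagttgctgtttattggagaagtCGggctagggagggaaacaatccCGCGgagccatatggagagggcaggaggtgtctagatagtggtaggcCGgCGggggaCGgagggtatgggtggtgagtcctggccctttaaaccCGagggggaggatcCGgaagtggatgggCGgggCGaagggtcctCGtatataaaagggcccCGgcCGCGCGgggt
TIMM8A upstream: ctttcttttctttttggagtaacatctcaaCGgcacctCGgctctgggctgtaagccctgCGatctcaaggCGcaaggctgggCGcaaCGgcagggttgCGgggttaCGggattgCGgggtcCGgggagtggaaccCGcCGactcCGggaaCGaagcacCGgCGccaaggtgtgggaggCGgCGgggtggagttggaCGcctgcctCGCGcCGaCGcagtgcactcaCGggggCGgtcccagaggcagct
NASP, with 16 CG pairs, 60.4% GC and a TATAAA in the window searched, departs from the median promoter of these genes, and TIMM8A, with 25 CG pairs, 66.4% GC and no TATAAA, lies closer to it.

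Shares of higher regions are given by the first transcribed base, with no test of their differences. Of genes that start with A, 72.3% of 1597 had a higher promoter-touching region in HPr1AR. In LNCaP it was 66.4% of 1438, and in 22Rv1 67.2% of 1328. Of genes that start with G the shares were 64.3%, 61.6% and 64.0%, and of those that start with C 63.6%, 61.4% and 56.8%. Genes whose start is C followed by 4 bases of C or T, as in RPS6, RPL37A and RPS19 above, gave 60.5% of 205, 57.5% of 174 and 54.3% of 162. Read from the other side, 49.3%, 47.9% and 47.8% of genes with a higher promoter-touching region start with A, against 39.9%, 42.4% and 42.4% of those with none higher and 44.3% of all promoters. Genes with 5′ end exon regions off the promoter alone start with A in 47.3%, 46.5% and 46.7%, close to the first of these, so A starts are not particular to higher promoter-touching regions. Median region widths for A, G and C starts were 620, 560 and 610 bp in HPr1AR, 580, 570 and 670 bp in LNCaP, and 410, 380 and 445 bp in 22Rv1. A starts were thus wider than G starts in every line, and the part of width in these shares was not tested. Among promoter-touching ribosomal protein genes with a sequence, 12 of 20, 16 of 24 and 9 of 15 start with C and 4 bases of C or T, against 4.04% of all promoters.

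Shares by the m6A core were likewise not tested. With GGACT in the first 50 transcribed bases (transcribed strand only, as the mark is on RNA), 67.1% of 170 genes (HPr1AR), 64.3% of 157 (LNCaP) and 67.6% of 142 (22Rv1) had a higher region. Without it the shares were 67.9%, 63.6% and 64.4%. For the shorter GGAC, which every GGACT contains, they were 68.9%, 63.2% and 67.3% with and 67.6%, 63.7% and 63.9% without. In 22Rv1 the share was higher with either core, by about as much as for A over G starts, and in HPr1AR and LNCaP the 2 cores went in opposite directions. GGACT was found in 4.87% and GGAC in 18.8% of all promoters over the same 50 bases. RefSeq starts are 1 per gene, and the start used in these lines was not measured.

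Both ends of a gene could be compared for 3716 genes in HPr1AR, 3046 in LNCaP and 3608 in 22Rv1, each with its most covered 5′ and 3′ end exon region and a two-sided Fisher's exact test adjusted over the genes. Ends are as listed, so either region can be an exon beside an intron longer than 10000 bp and not the end of the gene. The 5′ end stood above the 3′ end in 300 genes (8.07%), 303 (9.95%) and 148 (4.10%), and below it in 437 (11.8%), 318 (10.4%) and 432 (12.0%). Among genes whose 5′ region touched no promoter, the 3′ end stood above in 332 of 1784, 227 of 1323 and 374 of 1294, and the 5′ end in 49, 41 and 31. For promoter-touching 5′ regions the counts were 264 above and 169 below of 2369 in HPr1AR, 277 and 138 of 2034 in LNCaP, and 107 and 150 of 2602 in 22Rv1. These counts leave out regions with reads known only as at least. With such regions kept at their smallest reads, the promoter-touching counts turned to 290 above and 337 below in HPr1AR and to 283 and 338 in LNCaP, so no direction is given for them. Over both kinds they were 344 above and 874 below in HPr1AR and 338 and 790 in LNCaP, so the near balance of LNCaP holds only without these regions.

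Genes with the 5′ end above the 3′ end in all 3 lines numbered 27. COMMD10, a COMM domain gene, held 34 reads against 2 at the 5′ end and 0 against 9 at the 3′ end in HPr1AR, 50 against 5 and 0 against 10 in LNCaP, and 46 against 3 and 2 against 11 in 22Rv1. CYP51A1, the sterol demethylase of cholesterol synthesis, held 16 against 0 and 11 against 28, 24 against 0 and 14 against 40, and 24 against 2 and 7 against 38. In IMPA1 the 5′ ratios given above stood beside 3′ log2 ratios of 0.66 (-0.75 to 2.00), -0.05 (-2.63 to 2.09) and -2.26 (-7.75 to 0.70). TMCO1, a calcium channel of the endoplasmic reticulum, held 32 against 0 and 5 against 7, 60 against 9 and 2 against 13, and 48 against 2 and 3 against 9. In each of the 4 genes the 5′ end was the side with more numerator than reference reads in every table. The 3′ regions of COMMD10, IMPA1 and TMCO1 held 15 reads or fewer over both pull-downs, except IMPA1 in HPr1AR with 9 against 13, so their own ratios are loosely bounded. The 3′ region of COMMD10 in HPr1AR runs from 115428321 to 115428390, and its 5′ region from 115420571 to 115421130. Whether the 3′ regions named are last exons of their genes was not tested.

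The opposite order in all 3 lines was found in 35 genes. PUM2, an RNA-binding repressor, held 5 against 23 reads at its 5′ region and 63 against 8 at its 3′ end in HPr1AR, 5 against 15 and 48 against 5 in LNCaP, and 7 against 11 and 59 against 6 in 22Rv1. CIT, the citron kinase of cytokinesis, held 1 against 9 and 43 against 4, 0 against 7 and 38 against 2, and 1 against 9 and 58 against 9. SFXN1 held 6 against 30 and 48 against 31, 4 against 24 and 53 against 23, and 2 against 16 and 36 against 17. DNAJB14, a chaperone gene of the endoplasmic reticulum, held 3 against 14 and 42 against 9, 3 against 12 and 30 against 4, and 2 against 8 and 29 against 3. The 5′ regions of PUM2, CIT and SFXN1 touched no promoter and were 260 bp wide or less, while that of DNAJB14 touched one in HPr1AR and LNCaP.

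**Figure D4:**
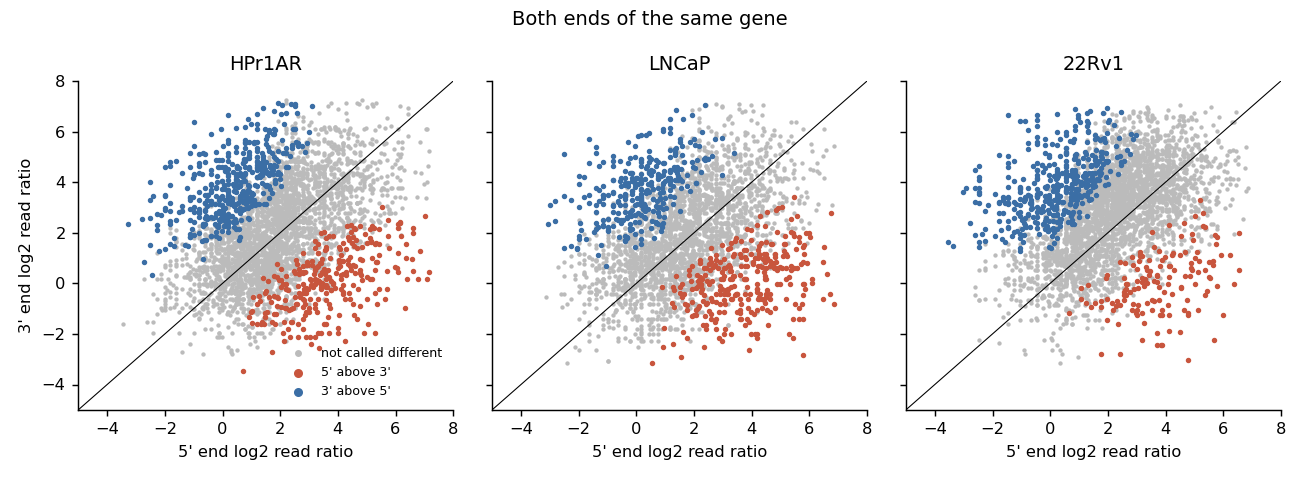
Each point is a gene, with the log2 read ratio of its 5′ end region on the x axis and that of its 3′ end region on the y axis; colours mark genes whose ends differ at an adjusted p under 0.05. Regions with reads known only as at least are left out. The 5′ and 3′ sides hold 300 and 437 genes in HPr1AR, 303 and 318 in LNCaP and 148 and 432 in 22Rv1. With those regions kept they hold 344 and 874 in HPr1AR and 338 and 790 in LNCaP.

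Between lines, tested pairs of overlapping 5′ end regions seldom differed. Pairs in which either region had reads known only as at least, or no recovered reads, were left out. Reads known only as at least belonged to 490 members of HPr1AR, 444 of LNCaP and 7 of 22Rv1, and 11 members of 22Rv1 had none recovered. An exact conditional test of the 2 read ratios, two-sided and adjusted over all tested pairs of overlapping regions, called 22 of 4300 pairs different between HPr1AR and LNCaP (0.512% against 0.350% of all tested pairs). HPr1AR was above in 6 of them and LNCaP in 16 (0.163% and 0.187% over all). Between HPr1AR and 22Rv1, 26 of 3878 pairs differed (0.670% against 0.458%), with HPr1AR above in 18 and 22Rv1 in 8 (0.292% and 0.166% over all). Between LNCaP and 22Rv1, 22 of 3897 differed (0.565% against 0.301%), with LNCaP above in 17 and 22Rv1 in 5 (0.213% and 0.0881% over all). RRM2, a subunit of ribonucleotide reductase, differed most: its region held 27 reads against 58 in HPr1AR, 48 against 2 in LNCaP and 51 against 1 in 22Rv1. The log2 ratios were 0.09 (-0.63 to 0.77), 5.76 (3.83 to 8.85) and 6.22 (3.68 to 11.55), so HPr1AR stood apart from both cancer lines.

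The windows behind these reads were not the same, however. The RRM2 windows of HPr1AR and LNCaP lay 775 bp apart, and those of HPr1AR and 22Rv1 765 bp. Over all differing pairs the median distance between the windows of the 2 lines was 508 bp for HPr1AR and LNCaP, 472 bp for HPr1AR and 22Rv1 and 602 bp for LNCaP and 22Rv1. Pairs called higher in both lines and not different had a median distance of 30 bp in each comparison. This was counted in 831, 878 and 906 pairs whose gaps between windows, summed over both regions, were at most 50 bp. Without this limit, 1710, 1710 and 1657 pairs were higher in both lines. The differing pairs were not limited in this way, so the medians come from unlike sets. Of the differing pairs, 18 of 22, 22 of 26 and 20 of 22 had windows more than 50 bp apart, and 2, 2 and 1 had windows within 50 bp. When only pairs with windows within 50 bp were tested, 0 of 2073, 0 of 1792 and 0 of 1863 pairs differed by the exact conditional test, against 0.00915%, 0% and 0.0270% of all such pairs. At an unadjusted p under 0.05 there were 81, 90 and 66 pairs, or 3.91%, 5.02% and 3.54%. This restriction was chosen after the distances were seen.

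Named differences follow the same pattern. SPG11 held 37 reads against 0 in HPr1AR and 21 against 16 in LNCaP at windows 440 bp apart, and EIF3A, the largest subunit of initiation factor 3, 20 against 29 and 45 against 0 at windows 515 bp apart. JTB held 44 against 42 in HPr1AR and 47 against 0 in LNCaP with windows 875 bp apart. CCNI, a cyclin gene, held 25 against 2 in HPr1AR, 33 against 4 in LNCaP and 30 against 38 in 22Rv1, with the 22Rv1 window 380 bp from that of HPr1AR and 470 bp from that of LNCaP. INSIG1, a sterol-regulated anchor protein, held 32 against 3 in HPr1AR and 18 against 24 in 22Rv1, 300 bp apart. DDAH1 held 44 against 0 in LNCaP and 54 against 37 in 22Rv1, 445 bp apart. For such genes the tables compare different parts of the same exon region, and the ratio at a shared window is not given by them.

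Of the 5 pairs with windows within 50 bp, 4 are described here, from 3 genes named after their values were seen. NFIX, a nuclear factor I gene, held 16 against 2 in HPr1AR, 32 against 51 in LNCaP and 30 against 37 in 22Rv1. TATDN2 held 63 against 6 in HPr1AR and 50 against 23 in 22Rv1, and PPP2R2A, a regulatory subunit of protein phosphatase 2A, 61 against 31 in LNCaP and 19 against 26 in 22Rv1. Their adjusted p-values of the exact conditional test were 0.00625 to 0.0481, and all were above the threshold once the pairs with distant windows were left out of the test, where the smallest adjusted p was 0.113.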

How the data were processed

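RNA pulled down with an m6A antibody or with IgG was sequenced from 17 samples of 3 lines, with 50 bp reads per the labels. The authors deposited 1 table per line of regions made of neighbouring 20 bp windows, each with the log2 fold of a representative window, as the authors deposited it. The p-value and adjusted p of each region are the authors' own, per the file headers. The submitters' processing notes name hg38, while for the aligner and window test no name is given in the sources at hand. Replicates were pooled in these tables: the labels call them biological, but no value per sample was used.

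The deposited log2 fold did not behave as an ordinary ratio: its values met log2(numerator + prior) minus 2 times log2(reference + prior) plus a constant. Whole reads of the representative window were recovered from it and the p-value with Python 3.11.15, numpy 2.4.6, pandas 2.3.3 and scipy 1.17.1, and the steps were tested on simulated data. The simulated regions held 1 window each and were drawn from the fitted formula. They do not test the formula itself or regions of many windows. A single pair of reads was found for 94.5% of regions in HPr1AR, 82.2% (LNCaP) and 99.0% (22Rv1). Depths of 16.85, 12.79 and 8.118 M reads follow from the fitted constants, each for all samples of a line. The labels give a target of 40 M read pairs per sample, so the recovered depths lie far below it. The reason was not tested, and the ratios and calls rest on the recovered depths. Tests were the exact binomial test per region, the exact conditional test between lines on the longest overlap of at least 1 bp, and Fisher's exact test between gene ends, each two-sided with Benjamini-Hochberg adjustment at 0.05. They cover counting error only, not the spread between samples.

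The regions, gene lists and markers were chosen with earlier results of these data known. Named genes are the 10 with the largest smallest lower limit of the ratio over the lines, 6 further leaders per line, 4 lower regions per line, 3 pairs per direction and pair of lines, 4 genes per direction between ends, and up to 4 genes with most reads per list, of which those described are a part. The result for 1 region pair is not reported here. Alternatives were other thresholds, read solutions, region choices and depths.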

Additional observations from a re-analysis of the deposited data

Results flagged for a closer look

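A difference between lines in the read ratio, by the exact conditional test adjusted over all tested pairs of overlapping regions, put the following genes forward. Between HPr1AR and LNCaP, the exact test gave a larger ratio in HPr1AR for SPG11 (adjusted p = 0.00179), HIP1R (0.00493, 33 reads against 1 and 11 against 13), DDX21 (0.00513, 49 against 7 and 29 against 31) and NFIX (0.0406). It was larger in LNCaP for RRM2 (2.56e-10), EIF3A (1.56e-07) and JTB (7.17e-07).

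Between HPr1AR and 22Rv1, exact conditional tests gave a larger ratio in HPr1AR for INSIG1 (adjusted p = 7.72e-05), CCNI (1.21e-04), ESRP2 (2.89e-04, 61 against 0 and 21 against 10), TATDN2 (0.00625) and NFIX (0.0114). The ratio was larger in 22Rv1 for RRM2 (2.26e-08), JTB (0.00434, 44 against 42 and 50 against 3) and SMARCB1 (0.00938, 12 against 22 and 21 against 0).

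Between LNCaP and 22Rv1, the same test gave a larger ratio in LNCaP for DDAH1 (1.14e-06), SRM (4.21e-05, 54 against 6 and 12 against 18), CCNI (8.13e-05) and PPP2R2A (0.0481). In 22Rv1 it was larger for UQCRC1 (3.07e-04, 14 against 21 and 38 against 0), MACROH2A1 (0.00965, 42 against 50 and 23 against 0) and SLC38A2 (0.0197, 36 against 53 and 47 against 8).

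The windows of the 2 lines lay 100 to 1240 bp apart in these genes, except NFIX, TATDN2 and PPP2R2A with 0 to 20 bp. NFIX, TATDN2 and PPP2R2A were added after their values were seen.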

How the results depend on the processing

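No paired analysis was possible because the tables hold no value per sample, and for the same reason no replicate could be left out and no replicate block fitted. Values below run HPr1AR, LNCaP, 22Rv1 unless a line is named, and the causes of the changes were not tested. Counts of higher regions were 7322, 6173 and 5366 by the authors' deposited adjusted p, 897, 713 and 667 without a promoter, and 1849, 1602 and 716 with depths scaled to a median ratio of 0. In LNCaP, members with a single solution for the reads gave 1821. Lower regions numbered 1, 1 and 1 at a threshold of 0.01.

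The gap between promoter-touching and other members, with settings chosen after the data were seen, was 33.4, 28.9 and 23.5 percentage points at 0.01, 18.3, 17.3 and 4.04 with scaled depths, 23.3, 16.5 and 8.99 over 300 and up to 1000 bp, and 33.1 in HPr1AR above a rate of 0.862 reads per M. It kept its sign in every setting run.

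Pairs that differ between lines numbered 13 (HPr1AR and LNCaP), 11 (HPr1AR and 22Rv1) and 13 (LNCaP and 22Rv1) at a reciprocal overlap of 50%, 13, 13 and 10 at a threshold of 0.01, and 0, 0 and 0 with windows within 50 bp. With a single solution for the reads they numbered 13 for HPr1AR and LNCaP and 11 for LNCaP and 22Rv1. Genes whose ends differ numbered 427, 346 and 316 at 0.01. With promoter-touching 5′ regions alone there were 433 in HPr1AR and 257 in 22Rv1. With regions kept whose reads are known only as at least, there were 1218 in HPr1AR and 1128 in LNCaP. The count of genes higher in all 3 lines, 1736, was 1408 at a threshold of 0.01 and 1709 for regions that overlap in the 3 tables.

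Depth limits the top of the ratios: with no reference reads a ratio is only a lower bound, and 360 members of HPr1AR, 473 of LNCaP and 462 of 22Rv1 had none.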
